A study of Mus musculus with 24 samples.

Results

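The adult hemoglobin genes Hba-a1, Hba-a2, Hbb-bs and Hbb-bt, together with Alas2, were followed as a measure of blood content in whole epididymal fat of mice. They were taken by symbol and were 5 of the 16730 genes in the count table, and all 5 were among the 15020 genes tested. Fat pads came from 24 male mice, 6 in each of 4 groups defined by genotype and diet. Mice carried a floxed Lama4 gene (Lama4 fl/fl, labelled wild type) or had Lama4, which encodes the basement membrane protein laminin alpha 4, deleted in fat cells (Lama4 AKO, labelled LAMA4 knockout). The AKO mice carried the same floxed alleles plus a Cre driven by the adiponectin promoter, so that vessels, blood cells and other non-fat cells were not targeted. Both genotypes shared the strain label LFKO and received regular chow or a high-fat diet with 45% fat (HFD) for 20 weeks, and were 24 to 26 weeks old at collection. Reads came from Lexogen QuantSeq, which counts the 3′ ends of polyadenylated RNA. Values are therefore given as library-normalised counts (CPM, scaled between libraries with TMM factors) without division by transcript length.

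Adult hemoglobin is a tetramer of alpha chains, encoded by Hba-a1 and Hba-a2, and beta chains, encoded by Hbb-bs and Hbb-bt in mice with the C57BL/6 form of the beta globin locus. Alas2 encodes the erythroid form of 5-aminolevulinate synthase, which starts heme synthesis in red cell precursors, whereas Alas1 serves the other tissues. Young red cells (reticulocytes) have lost their nucleus but still carry globin mRNA, so unperfused tissue normally shows globin reads from the blood in its vessels.

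The alpha genes lie on chromosome 11 (GRCm38), Hba-a1 at chr11:32283511-32284465 and Hba-a2 at chr11:32296489-32297298, both on the forward strand. The beta genes lie on the reverse strand of chromosome 7, Hbb-bs at chr7:103826534-103828096 and Hbb-bt at chr7:103812524-103813996. Each of these 4 genes has 3 exons and overlaps no other annotated gene. Alas2 (11 exons, chrX:150547375-150570638, forward strand) lies within the span of Apex2 on the opposite strand and also overlaps Mir3620. Whether the counting used the read strand is not given in the sources used here, so reads of Alas2 and Apex2 (mean 6.73 CPM) may not be fully separated.

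The members of each pair are nearly the same gene, which limits how their reads can be told apart. The coding sequences of Hba-a1 and Hba-a2 differed at 1 of 429 bases and those of Hbb-bs and Hbb-bt at 1 of 444 bases. The lines that follow show coding positions 351 to 411 of the alpha genes and 384 to 444 of the beta genes, with the base that differs in capitals. It is C381T from Hba-a1 to Hba-a2 and C417T from Hbb-bs to Hbb-bt, counted from the first base of the start codon.
Hba-a1: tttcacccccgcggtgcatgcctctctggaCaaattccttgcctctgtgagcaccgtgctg
Hba-a2: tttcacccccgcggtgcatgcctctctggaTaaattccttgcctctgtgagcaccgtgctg
Hbb-bs: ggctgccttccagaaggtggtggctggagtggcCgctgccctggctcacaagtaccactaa
Hbb-bt: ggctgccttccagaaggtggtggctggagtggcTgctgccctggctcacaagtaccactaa

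QuantSeq reads of 50 bases come from the end of the transcript, where the pairs are unlike each other. All 25 windows of 50 bases in the 3′ UTR of Hba-a1 were found unchanged in Hba-a2, whereas 0 of 82 such windows of Hbb-bs were found in Hbb-bt. In the other direction, 25 of 41 windows in the 3′ UTR of Hba-a2 were found in Hba-a1. The division of alpha reads between Hba-a1 and Hba-a2 is therefore uncertain. Reads in the 3′ UTR of Hbb-bs and Hbb-bt can be assigned to their gene. Over the whole transcript, 381 of 579 windows of Hbb-bs were found in Hbb-bt. Beta reads that lie in the coding sequence may therefore not be separated, which also limits the ratio of Hbb-bt to Hbb-bs.

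Promoter letters are shown for genes whose levels moved together across mice; no motif searched was common to all 5. The RefSeq windows from 250 bases before to 50 after the starts of Hba-a1 and Hba-a2 shared an identical run of 297 of 300 bases. The following stretches lie before the RefSeq starts and outside all annotated exons (GRCm38.p6), namely chr11:32296372-32296488 for Hba-a2, chr7:103827929-103828011 on the reverse strand for Hbb-bs and chrX:150547297-150547374 for Alas2. Capitals mark motifs on either strand. The first motif searched was CCAAT, named after its own letters. A TATA box was searched for by the letters ATATAA, and a copy shifted by a base, with the letters TATAAA, was counted as the same motif. The erythroid GATA motif was searched for by the letters AGATAA, and the variant of it whose letters are TGATAA was counted in the same way.
Hba-a2: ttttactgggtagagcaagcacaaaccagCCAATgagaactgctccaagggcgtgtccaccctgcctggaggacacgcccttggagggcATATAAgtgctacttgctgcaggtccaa
Hbb-bs: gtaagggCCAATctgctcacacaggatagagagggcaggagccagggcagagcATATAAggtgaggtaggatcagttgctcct
Alas2: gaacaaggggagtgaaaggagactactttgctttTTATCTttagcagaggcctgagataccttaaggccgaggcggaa

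In the 120 bases before the start, all 4 hemoglobin genes held CCAAT and a TATA box, which 21.3% and 8.74% of 32851 mouse promoters held. The TATA box began 28 to 31 bases before the RefSeq start in these 4 genes. Alas2 held neither and was the only one of the 5 with a GATA motif, found in 7.63% of promoters. CCNCNCCC, a CACCC-type motif, occurred in Hbb-bs, Hbb-bt and Alas2 and in 34.6% of promoters. These matches describe the letters in one window and do not show binding.

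Libraries held between 5579590 and 18764516 counts. No 2 libraries of a group agreed within sampling noise. A few libraries stood apart from the rest in the proportions of the hemoglobin mRNAs, namely HFD fl/fl 1, HFD fl/fl 5 and HFD AKO 2, and the log2 fold changes that use HFD mice and the relations across mice are also given without them. The labels give no extraction or sequencing batch. Lama4 itself (mean 84.3 CPM) differed between AKO and fl/fl by a log2 fold change of 0.12 on chow (adjusted p = 0.974, edgeR) and -0.70 on HFD (adjusted p = 0.338). The floxed part is exon 3, far from the 3′ end that QuantSeq counts, so this value does not check the labels. By quantitative PCR, the study reports lower Lama4 in epididymal fat of chow-fed AKO mice than of controls. The fat cell markers were abundant, with Fabp4 at a mean of 15741 CPM and Adipoq at 2400 CPM.

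Hemoglobin mRNA was plentiful in every fat pad and varied widely between mice of the same group. The 4 hemoglobin genes together took 0.123% of all counts in the lowest library (HFD fl/fl 1, 95% Wilson interval 0.121 to 0.125%) and 0.523% in the highest (HFD fl/fl 4, 0.519 to 0.526%), a 4.24-fold range. These intervals cover counting error only. The median share was 0.284% in chow fl/fl, 0.340% in chow AKO, 0.305% in HFD fl/fl and 0.224% in HFD AKO. The lowest and the highest of the 24 libraries thus belonged to the same group. In bulk tissue, fewer red cells and less globin mRNA per red cell cannot be told apart, and a share of counts also depends on all other RNA in the sample.

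Hbb-bs, the more abundant beta chain gene, ranged from 1023 to 2850 CPM in chow fl/fl (median 1697) and from 767 to 2953 CPM in chow AKO (median 1956). On HFD it ranged from 774 to 3256 CPM in fl/fl (median 1801) and from 879 to 2426 CPM in AKO (median 1240). All 4 groups overlapped, and Hbb-bs ranked between 23rd and 159th among all genes by count in a library.

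**Figure D1:**
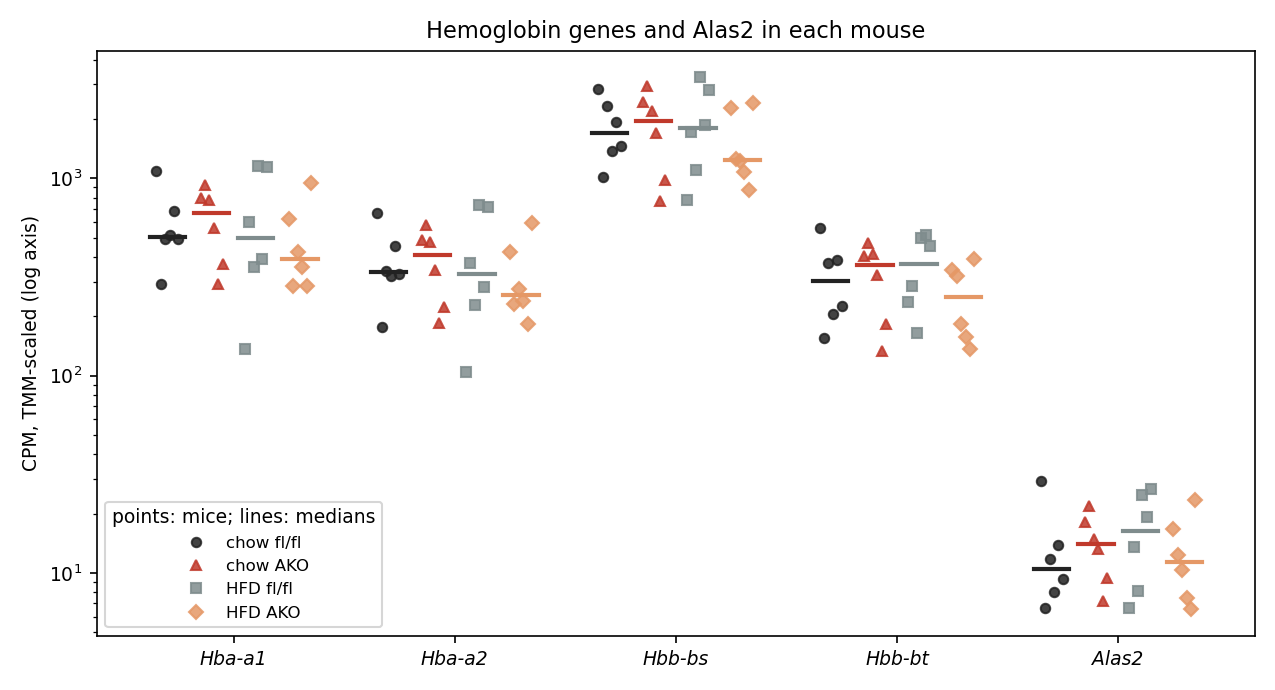
CPM of the 5 genes in each of the 24 mice on a log axis, with 1 point per mouse and a line at the median of each group of 6. The 4 groups overlap for every gene, and Hbb-bs lies between 767 and 3256 CPM.

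Hbb-bt, the other beta chain gene, ranged from 154 to 561 CPM in chow fl/fl (median 300.3), from 133 to 470.2 CPM in chow AKO (median 364), from 165 to 518 CPM in HFD fl/fl (median 369) and from 137 to 391.6 CPM in HFD AKO (median 252). As for Hbb-bs, the lowest median was that of HFD AKO, and its highest mouse lay above the median of each other group.

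Hba-a1, an alpha chain gene, ranged from 291 to 1095 CPM in chow fl/fl (median 506), from 292 to 928 CPM in chow AKO (median 670), from 137 to 1151 CPM in HFD fl/fl (median 498) and from 285 to 944 CPM in HFD AKO (median 389). Hba-a2, its near copy, ranged from 177 to 671 CPM in chow fl/fl (median 334), from 185 to 581 CPM in chow AKO (median 409.9), from 104 to 730.5 CPM in HFD fl/fl (median 328) and from 184 to 597 CPM in HFD AKO (median 256). The widest range of both alpha genes was in HFD fl/fl, where HFD fl/fl 1 was the lowest mouse of the study.

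Alas2, the only member that does not encode a globin, was far less abundant. It ranged from 6.63 to 29.3 CPM in chow fl/fl (median 10.5), from 7.21 to 21.9 CPM in chow AKO (median 14.0), from 6.67 to 26.5 CPM in HFD fl/fl (median 16.4) and from 6.56 to 23.3 CPM in HFD AKO (median 11.3). Its values rested on 43 to 356 counts per library, so counting error was larger than for the globins. The groups overlapped here too.

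The comparison of HFD with chow asks whether the blood signal in the fat pad changed with obesity, and that of AKO with fl/fl whether it changed with loss of adipocyte LAMA4. None of the 5 genes passed the study's criteria (fold change of at least 1.5, nominal p of at most 0.001, mean of at least 2 CPM in a group) in any of 5 comparisons by edgeR's quasi-likelihood test. In HFD against chow within fl/fl, 0 of 5 passed, where 0.186% of all genes tested did. Within AKO, 0 of 5 passed, where 4.28% of all genes did. In AKO against fl/fl, 0 of 5 passed on HFD (0.16% of all genes) and 0 of 5 on chow (0.126%). In the diet by genotype interaction 0 of 5 passed, against 0.366% of all genes. The count at an unadjusted p under 0.05 was also 0 in each comparison, where 9.25%, 39.9%, 14.8%, 5.76% and 15.6% of all genes lay under it in the order given. DESeq2 and limma-voom also called 0 of 5. The shares over all genes belong to the fit used here, with all 24 mice. After removing outlier mice and using limma-voom, the study reports more genes passing in each comparison between groups, and far more between diets.

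On HFD, Hbb-bs was at 0.79-fold in AKO relative to fl/fl (95% interval 0.47 to 1.34, adjusted p = 0.652, edgeR). All 5 genes had negative log2 fold changes in this comparison, from -0.49 for Hbb-bt to -0.32 for Hba-a2, with standard errors of 0.36 to 0.43 and adjusted p of 0.505 or more. Their median was -0.36, beside -0.04 over all genes tested. Since the 5 genes moved together across mice, their shared sign is not 5 separate observations. Without HFD fl/fl 1, HFD fl/fl 5 and HFD AKO 2 the log2 fold changes were -0.61 for Hba-a1, -0.55 for Hba-a2, -0.47 for Hbb-bs, -0.51 for Hbb-bt and -0.47 for Alas2, with 0 of 5 passing. Leaving out single mice moved these values by more than 1.5 times in both directions for Hba-a1 (-0.68 to -0.088), Hba-a2 (-0.59 to -0.040), Hbb-bs (-0.52 to -0.090) and Alas2 (-0.62 to -0.14), and Hbb-bt lay between -0.66 and -0.35.

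On chow, the genotypes had almost equal mean levels. The log2 fold change of AKO against fl/fl was between 0.0057 (Hba-a2) and 0.12 (Alas2), and that of Hbb-bs was 0.01 (0.60 to 1.70-fold, adjusted p = 0.999, edgeR). The signs of Hba-a2, Hbb-bs and Hbb-bt on chow turned negative with limma-voom. The interval does not show equality, since it includes changes of 1.5-fold in either direction.

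In fl/fl mice, HFD against chow gave log2 fold changes from 0.07 for Hbb-bs to 0.33 for Alas2 (adjusted p of 0.822 or more, edgeR), and those of Hba-a1, Hba-a2 and Hbb-bs were negative with limma-voom. Hba-a1 had 1.06-fold the chow level (0.58 to 1.95). Without the 3 libraries the log2 fold changes were 0.44 for Hba-a1, 0.41 for Hba-a2, 0.27 for Hbb-bs, 0.13 for Hbb-bt and 0.46 for Alas2. In AKO mice, HFD against chow gave values from -0.35 for Hba-a1 to -0.14 for Alas2 (adjusted p of 0.503 or more). Hbb-bs was at 0.83-fold (0.49 to 1.40). Without the 3 libraries the log2 fold changes were -0.22 for Hba-a1, -0.14 for Hba-a2, -0.21 for Hbb-bs, -0.39 for Hbb-bt and -0.12 for Alas2. Leaving out single mice gave -0.65 to -0.19 for Hba-a1, -0.51 to -0.070 for Hba-a2, -0.45 to -0.076 for Hbb-bs, -0.49 to -0.18 for Hbb-bt and -0.40 to 0.033 for Alas2.

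The interaction, which is the difference between these diet effects, ranged from -0.51 for Hbb-bt to -0.33 for Hba-a2, with standard errors of 0.51 to 0.60 and adjusted p of 0.605 or more. Without the 3 libraries it was -0.66 for Hba-a1, -0.55 for Hba-a2, -0.47 for Hbb-bs, -0.52 for Hbb-bt and -0.58 for Alas2. Leaving out single mice gave -0.74 to -0.14 for Hba-a1, -0.59 to -0.039 for Hba-a2, -0.53 to -0.095 for Hbb-bs, -0.73 to -0.34 for Hbb-bt and -0.85 to -0.25 for Alas2. Comparisons with a group in common are not independent of each other.

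**Figure D2:**
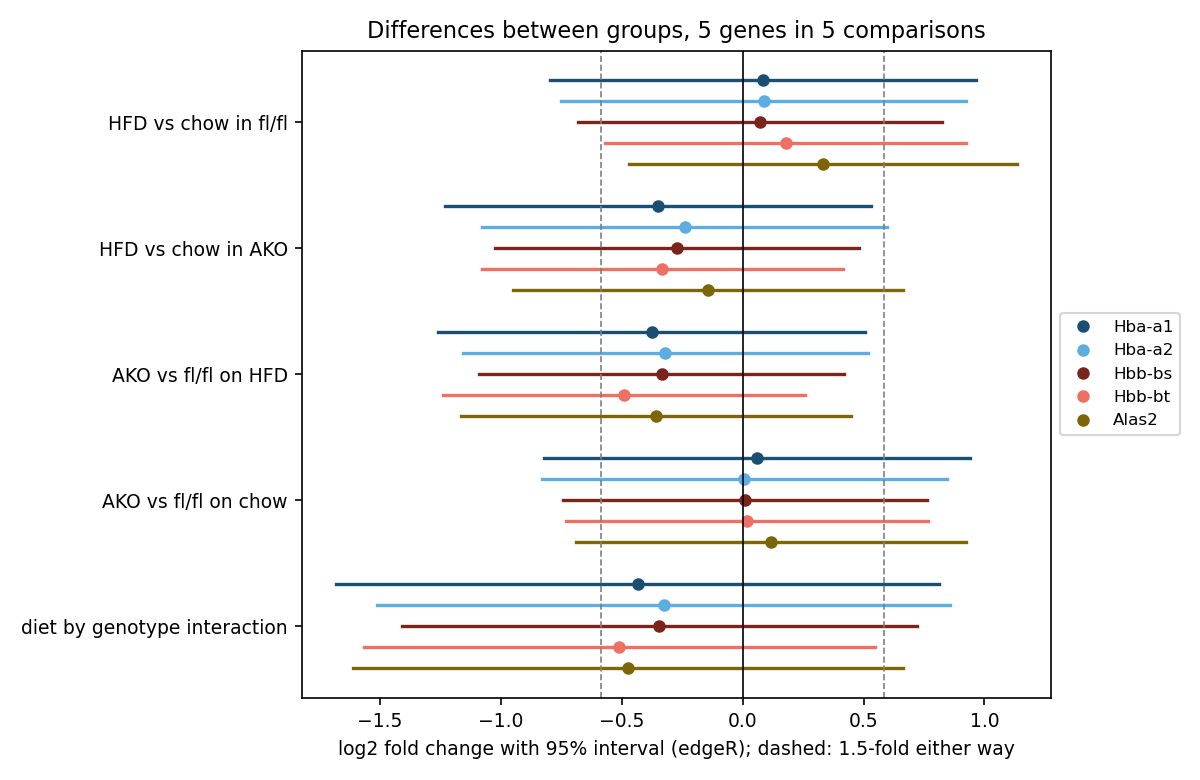
Log2 fold changes (points) and 95% intervals (bars) of the 5 genes in 4 group comparisons and in the diet by genotype interaction, fitted with edgeR; dashed lines mark a 1.5-fold change either way. Every interval spans 0, and the interaction intervals are the widest.

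Mice of the same group differed widely in these genes. The within-group SD of log2 CPM was 0.82 for Hba-a1, 0.77 for Hba-a2, 0.72 for Alas2, 0.69 for Hbb-bt and 0.68 for Hbb-bs, whereas the median gene had 0.42. Between 77.9% (Hbb-bs) and 86.3% (Hba-a1) of all genes tested had a smaller SD. Group membership accounted for 1.94% (Hba-a2) to 7.24% (Hbb-bt) of the variance of the members, against 21.9% for the median gene. Group means take up some variance even where groups do not differ, so these shares do not estimate a group effect.

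The 5 genes rose and fell together from mouse to mouse within the groups. After removal of group means, Pearson's r over the 24 mice was 0.99 between Hba-a1 and Hba-a2, 0.95 between Hba-a2 and Hbb-bs, 0.94 between Hbb-bs and Alas2, and 0.90 between Hbb-bs and Hbb-bt. The lowest of the 10 pairs was Hba-a1 with Hbb-bt at 0.73 (rho 0.78, permutation p = 0.00012, adjusted over 18 relations 0.00018). Within single groups that pair had r of 0.89 in chow fl/fl, 0.99 in chow AKO, 0.60 in HFD fl/fl and 0.67 in HFD AKO. Without the 3 libraries, r of the 10 pairs lay between 0.94 and 0.998 (Hba-a1 with Hbb-bt 0.96, n = 21). Those libraries were picked for unusual ratios among these same genes. A higher r without them follows from that choice and is no separate evidence. The near identity of Hba-a1 and Hba-a2 in sequence means that their r may partly reflect shared reads.

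The proportions among the hemoglobin mRNAs separated a few HFD libraries from the rest. The count ratio of Hbb-bt to Hbb-bs was 0.307 in HFD fl/fl 1, 0.276 in HFD fl/fl 5 and 0.256 in HFD AKO 2, whereas the other 21 libraries lay between 0.146 and 0.199. The same 3 libraries had the highest ratios of Hba-a2 to Hba-a1, at 0.758, 0.721 and 0.807, where the others lay between 0.601 and 0.683.

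The ratio of alpha to beta counts was low in the same libraries. It was 0.238 in HFD fl/fl 1, 0.282 in HFD fl/fl 5 and 0.328 in HFD AKO 2, and it was also low in chow fl/fl 3 at 0.309. The other 20 libraries lay between 0.397 and 0.572. In chow fl/fl 3 the ratio of Hbb-bt to Hbb-bs was 0.161, inside the range of the others, so this library shared only the low alpha ratio. Group medians of the alpha to beta ratio were 0.488 in chow fl/fl, 0.465 in chow AKO, 0.473 in HFD fl/fl and 0.472 in HFD AKO, with overlapping ranges. The 3 libraries were chosen after these values were seen, and the difference carries no test.

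The libraries that stood apart did not share a level of hemoglobin. Hbb-bs was at 774 CPM in HFD fl/fl 1, at 1875 CPM in HFD fl/fl 5 and at 1251 CPM in HFD AKO 2. Their totals were 16787814, 15099950 and 11483305 counts, inside the range of the others. They lay low on the first principal component of all other genes, at -73.5, -48.4 and -58.6 within a span from -73.5 to 91.8, and chow fl/fl 3 lay at -46.8. The direction of this component is arbitrary and was set so that it rose with Hbb-bs. Some libraries with ordinary ratios also lay low, though none as low as HFD fl/fl 1. HFD fl/fl 2 was at -48.4 with an alpha to beta ratio of 0.486, and HFD AKO 4 at -61.4 with 0.482. The median of HFD AKO was -55.1. Over the 24 libraries, after removal of group means, the log2 alpha to beta ratio had r = 0.61 (rho 0.57) with this component. With the share of mitochondrial counts it had r = 0.03. Whether the component has a part in the ratio was not tested. Alas2 per 1000 Hbb-bs counts was 8.61, 10.3 and 9.89 in the 3 libraries and 5.04 to 10.3 in the others.

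**Figure D3:**
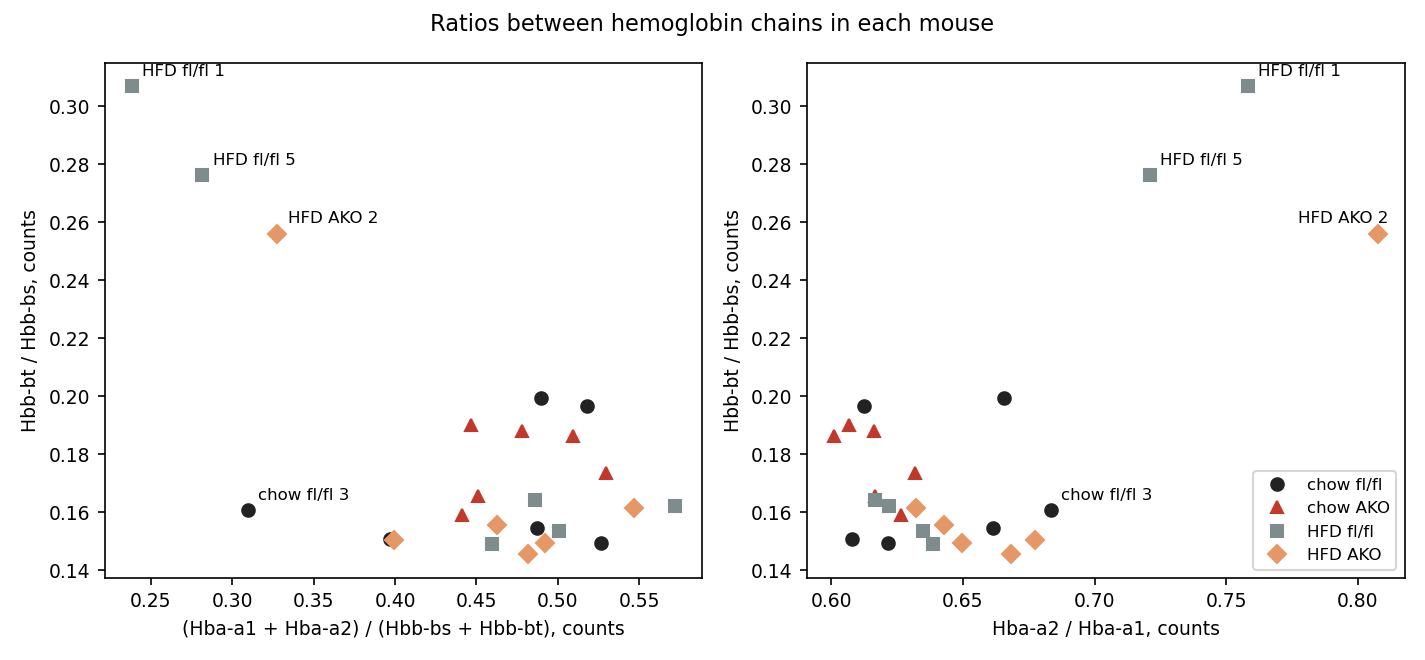
Count ratios in each of the 24 mice, with 1 point per mouse: Hbb-bt to Hbb-bs against alpha to beta (left) and against Hba-a2 to Hba-a1 (right). HFD fl/fl 1, HFD fl/fl 5 and HFD AKO 2 lie above 0.25 on the vertical axis, and the other 21 libraries lie at 0.199 or lower.

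Several genes that define red cell precursors were at the edge of detection, while others of the list were measured in every library. Of 38 erythroid genes, 26 had a row in the table, 21 were tested and 7 had a mean under 1 CPM. Slc4a1, the band 3 anion exchanger of the red cell membrane, averaged 0.429 CPM and was at 0 in 1 library. The transcription factors Gata1, Nfe2 and Gfi1b averaged 0.412, 0.403 and 0.431 CPM. Tal1, a transcription factor that endothelial cells also use, averaged 8.34 CPM, the erythropoietin receptor gene Epor 6.28 CPM, Ank1 (ankyrin 1) 2.23 CPM and Sptb 1.97 CPM, with no library at 0. The summed level of the list lay between 753 and 1067 CPM and came mostly from genes that many cells use, led by Aqp1 (a water channel of red cells and capillary endothelium, 267 CPM), Prdx2 (208 CPM) and Bnip3l (87.9 CPM). Among other globins, Cygb (cytoglobin of fibroblast-like cells) averaged 278 CPM, while Mb and Ngb averaged 0.252 and 0.443 CPM.

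The erythroid list as a whole did not follow Hbb-bs. Its mean log2 CPM had r = -0.04 with Hbb-bs (permutation p = 0.876) and 0.23 without the 3 libraries, and 9 of its 21 tested genes had a positive r. Of all 15015 genes compared outside the members, 7371 had a positive r, which is the background for such counts here and below. Single genes of the list went both ways. Bpgm, whose product makes 2,3-bisphosphoglycerate in red cells, had r = 0.85, Sptb (beta spectrin) had 0.79 and Car1 (carbonic anhydrase 1) had 0.73. Car1 was near the floor, at a mean of 0.787 CPM, with 3 libraries at 0 and at most 29 counts. Slc2a1 (the glucose transporter GLUT1) had r = -0.71 and Mkrn1 had -0.70. Bpgm, Sptb, Car1, Slc2a1 and Mkrn1 were picked after their values were seen.

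Other heme genes also differed in direction. Of 13 heme synthesis genes, 8 had a positive r with Hbb-bs, from 0.78 for Alad, the enzyme after aminolevulinate synthase, to -0.75 for Cpox, coproporphyrinogen oxidase. Alas1, the housekeeping counterpart of Alas2, had a mean of 196 CPM and r = -0.42, where Alas2 had 0.94. Fech, which inserts iron into protoporphyrin to form heme, had r = 0.71. None of the 13 passed the study's criteria in any comparison.

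A further list covered genes that take up and break down hemoglobin or heme and that store or move iron. Of 22, 7 had a positive r with Hbb-bs. Cd163, the hemoglobin-haptoglobin receptor, had r = 0.79, whereas Hmox1 (heme oxygenase 1) had -0.66, the heme exporter Flvcr1 -0.80 and the iron transporter Slc11a1 -0.81. The ferritin genes Fth1 and Ftl1, at means of 3698 and 1828 CPM, had -0.56 and -0.67.

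Of the 22, 3 passed the criteria, each in HFD against chow within AKO. The iron exporter Slc40a1 was higher by a log2 fold change of 2.23 (adjusted p = 0.0114), Hp (haptoglobin, which binds free hemoglobin and is made by fat cells) fell by 1.34 (adjusted p = 0.0114) and Cp (ceruloplasmin, a ferroxidase) fell by 0.87 (adjusted p = 0.0136). In the same comparison, 4.28% of all genes passed. Ube2l6 of the erythroid list (-0.97), Ppbp of the platelet list (-1.32) and Lep of the adipocyte list (-2.12) also passed, and no listed gene passed in another comparison.

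Hbb-bs followed the vessel and fat cell markers of the same library. The mean log2 CPM of 15 endothelial genes had r = 0.82 with Hbb-bs over the 24 mice (rho 0.80, permutation p = 1e-05, the smallest that 100000 permutations can give, adjusted 2e-05). All 15 had a positive r, with Mmrn2 highest at 0.81 and Eng lowest at 0.03, and the most abundant, Pecam1, Kdr and Esam, had 0.67, 0.66 and 0.78. Within groups the list had r of 0.78 in chow fl/fl, 0.87 in chow AKO, 0.81 in HFD fl/fl and 0.82 in HFD AKO. Without the 2 mice farthest from the median it was 0.81, and without the 3 libraries 0.79.

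The mean of 11 adipocyte genes had r = 0.81 with Hbb-bs (rho 0.82, permutation p = 3e-05, adjusted 4.9e-05), and all 11 had a positive r. Adipoq (adiponectin) had 0.86, Fabp4 0.68 and Lpl 0.70. Without the 2 mice farthest from the median it was 0.78, and without the 3 libraries 0.80. Hbb-bs also had r = 0.67 with the first principal component, which held 45.9% of the variance of the other genes (adjusted p = 0.00188), and 0.61 with Lama4 (adjusted p = 0.00369). Without the 2 mice farthest from the median these were 0.59 and 0.53, and without the 3 libraries 0.64 and 0.54. Because the direction of the component was set to rise with Hbb-bs, only the size of its r is informative, not the sign. The endothelial, adipocyte and Lama4 values are not separate from this component, and their separate parts in the variation of Hbb-bs were not tested.

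Lists of markers of the other blood cells had negative r with Hbb-bs, although Ppbp (0.52), Mmp9 (0.38) and S100a8 (0.04), the most abundant neutrophil gene at a mean of 108 CPM, had positive r. The mean of 8 platelet genes had r = -0.47 (rho -0.50, permutation p = 0.0355, adjusted 0.0399) and r = -0.36 without the 2 mice farthest from the median, or -0.47 without the 3 libraries. The summed level of that list was mostly Pf4 (mean 359 CPM, also made by tissue macrophages), but each gene had equal weight in the mean log2 CPM. Pf4 had r = -0.21 with Hbb-bs, and the lowest of the list was Treml1 at -0.70. Gp9, a platelet surface glycoprotein that was not among the 8, averaged 0.233 CPM and was at 0 in 4 libraries. The mean of 9 neutrophil genes had r = -0.50 (rho -0.46, permutation p = 0.0156, adjusted 0.0188), but within HFD AKO it was 0.34, and without the 3 libraries it was -0.38 over the others. Library total had r = 0.26 with Hbb-bs (permutation p = 0.303), and -0.11 without chow AKO 5 and HFD AKO 5, the 2 libraries farthest from the median. Without the 3 libraries it was 0.36.

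**Figure D4:**
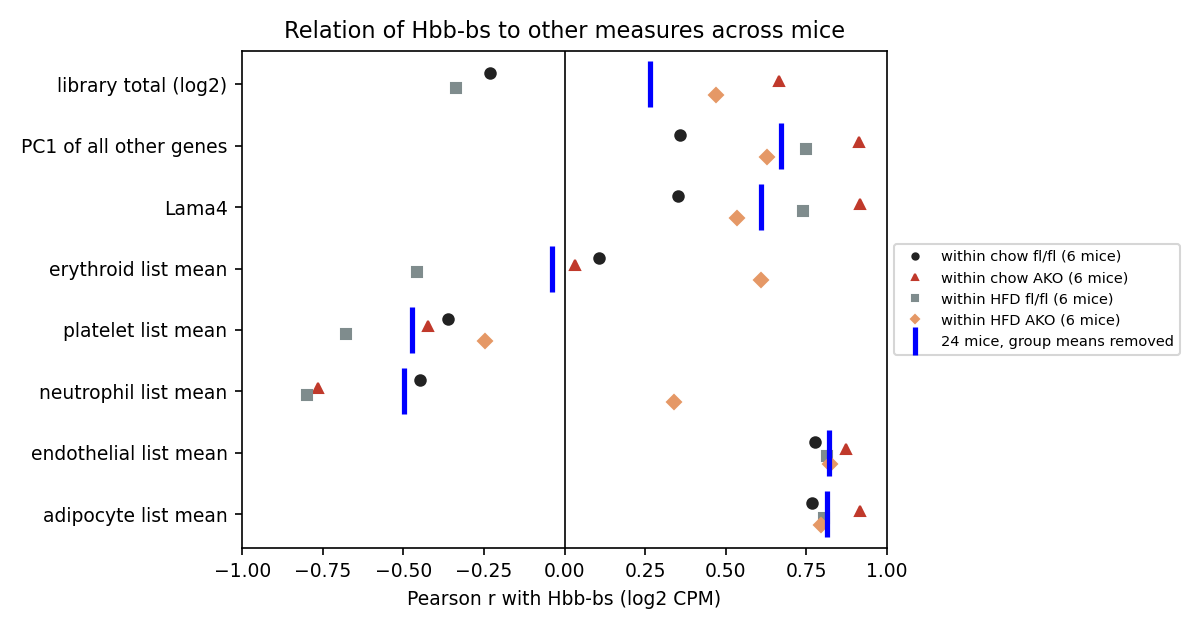
Pearson's r of Hbb-bs log2 CPM with 8 other measures: over 24 mice after removal of group means (blue bars) and within each group of 6 mice (points). The endothelial and adipocyte lists have r of 0.77 or more in each group, whereas the erythroid list ranges from -0.46 to 0.61.

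In the comparisons between groups, the lists moved as follows beside the members. In AKO against fl/fl on HFD, where the members had a median of -0.36, the median log2 fold change was -0.86 over the adipocyte list and -0.32 over the endothelial list, with 0 of 11 and 0 of 15 passing. The summed level of the 11 adipocyte genes ranged from 18001 to 62007 CPM in HFD fl/fl and from 19187 to 35424 CPM in HFD AKO. That of the 15 endothelial genes ranged from 539 to 1248 CPM and from 535 to 986 CPM. In HFD against chow within AKO, the adipocyte median was -0.997, the endothelial median -0.54 and that of the members -0.27. The part of fat cell or vessel content in the member values was not tested.

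By the likeness of log2 CPM after removal of group means over 24 mice, the genes most like Hbb-bs outside the members were 2700046G09Rik (r = 0.92, mean 6.89 CPM), Plaat3 (0.91, a phospholipase of fat cells, 1362 CPM), Acbd4 (0.90) and Pecr (0.89). Amhr2, H2bc6, Dct, Phlda3, Psat1 and Pllp followed at 0.88. Of 15015 other genes, 210 had r over 0.8 with Hbb-bs and 47 had r below -0.8.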

How the data were processed

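Epididymal fat RNA of 24 mice was sequenced with QuantSeq. The authors deposited raw gene counts and a signal table of the same counts. In that deposited signal table each library was divided by 1 size factor (0.460 to 1.36). The study's methods name the Lexogen pipeline on Bluebee and Rsubread for the count matrices. The submitters' processing notes list build GRCm38, R 4.0.3 and DESeq2 1.30. The signal table supplied gene symbols only (14067 genes). The study's methods removed outlier mice that the labels do not name, so all 24 were used here.

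Genes that reached 1 CPM in 3 or more mice were tested with edgeR 4.0.16 (quasi-likelihood test, TMM factors, 1 coefficient per group, Benjamini-Hochberg adjustment), in R 4.3.3. Tests were checked on simulated data. Log2 CPM used a prior count of 2. Relations used group-centred values and two-sided permutation tests with 100000 permutations within groups. Wilson intervals of 95% cover counting error only. Alternatives used limma 3.58.1, DESeq2 1.42.0, other filters and scalings, a replicate block and the omission of single mice. The 60 pairs of libraries within groups differed by at least 6.07 in chi-square per degree of freedom. Gene structures came from GENCODE vM21 and promoters from RefSeq (GRCm38.p6), and all 5 genes matched.

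Genes named are the 5 members, Lama4, listed genes passing the criteria, the 3 most abundant genes of each list and the 10 genes most like Hbb-bs; others are said to be chosen after their values were seen, as were the lowest and highest members of lists, the defining erythroid genes and the genes of heme handling named by role. Members and lists were chosen with earlier results of these data known. Labels give mice as separate animals. Single values of a few listed genes are not reported here.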

Additional observations from a re-analysis of the deposited data

Results flagged for a closer look

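Of 40 values by group (the levels, shares and ratios of the hemoglobin genes and Alas2), 3 had a mouse far from the other 5 of its group, where chance marks about 1 in 20. Alas2 was at 29.3 CPM in chow fl/fl 1, whose gap to the next mouse took 0.68 of the group's range. The ratio of Hbb-bt to Hbb-bs was 0.256 in HFD AKO 2 (0.856 of the range), and its ratio of Hba-a2 to Hba-a1 was 0.807 (0.742 of the range). HFD fl/fl 1 and HFD fl/fl 5, which had ratios of the same kind, lay in 1 group and so could not stand apart from each other by this measure. What these 3 libraries share was not tested.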

How the results depend on the processing

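In the alternatives run, 0 of 5 members passed the criteria in each comparison, and the smallest unadjusted p was 0.0403, for Alas2 in the interaction with sample quality weights (limma-voom, log2 fold change -1.05, adjusted p = 0.102). Of 895 recomputed log2 fold changes, 51 changed sign, none of them called. With limma-voom, HFD against chow in fl/fl gave -0.14 for Hba-a1, -0.087 for Hba-a2 and -0.010 for Hbb-bs, and AKO against fl/fl on chow gave -0.031 for Hba-a2, -0.099 for Hbb-bs and -0.020 for Hbb-bt. Hba-a2 on chow was -0.00058 with the members removed from library totals, -0.00088 without HFD fl/fl 1, HFD fl/fl 5 and HFD AKO 2, and -0.036 also without chow fl/fl 3; these omissions were chosen after seeing the data. Leaving out each mouse in turn gave, for HFD against chow in fl/fl, -0.20 to 0.33 for Hba-a1, -0.19 to 0.31 for Hba-a2 and -0.17 to 0.23 for Hbb-bs. It gave -0.40 to 0.033 for Alas2 in HFD against chow in AKO. For AKO against fl/fl on chow it gave -0.10 to 0.32 for Hba-a1, -0.16 to 0.24 for Hba-a2, -0.18 to 0.18 for Hbb-bs, -0.13 to 0.25 for Hbb-bt and -0.056 to 0.51 for Alas2. The cause was not tested.

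Replicate numbers did not pair the mice (2, 2, 3 and 3 of 6 same-numbered pairs had r over 0.1). With the number as a replicate block, Hbb-bs on chow was -0.020 and no call of a member changed, while the count of all genes passing went from 19 to 11 on chow and from 55 to 33 in the interaction. Over all genes, DESeq2 passed 60, 1314, 81, 41 and 148 genes in the 5 comparisons, where edgeR passed 28, 643, 24, 19 and 55. Sample quality weights passed 3584, 532, 295 and 1322 in the last 4. A fit of only the groups compared passed 11 in HFD against chow in fl/fl, 1391 in AKO and 10 on chow. At an adjusted p of at most 0.05, the 5 counts were 0, 2490, 1, 0 and 1. Leaving out single mice gave 14 to 64, 297 to 1160, 13 to 94, 4 to 66 and 29 to 190. Without the 3 libraries, 10 passed in HFD against chow in fl/fl, 103 in AKO against fl/fl on HFD and 135 in the interaction; also without chow fl/fl 3 these were 9, 306 and 123.

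Of 18 relations, 16 passed an adjusted p of 0.05, and 15 to 16 did so under the alternatives. Without the 2 mice farthest from the median, r with Hbb-bs turned to -0.11 for library total and 0.11 for the erythroid list. The interaction was not fitted on fewer groups, since it uses all 4.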
